A study of Caenorhabditis elegans with 2 samples.

Results

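The autosomal intergenic distal binding sites of CEH-82 are the peaks on chromosomes other than X whose summit lay outside every gene body and outside every promoter window. Such a window began 1000 bp before a transcript's annotated 5' end and closed 200 bp past it. The rule used position alone, with no signal value. It kept 393 of the 3913 peaks of the authors' optimal list, or 393 of the 3214 autosomal ones (12.2%, exact 95% interval 11.1 to 13.4%). Of the other autosomal peaks, 2535 had their summit in a promoter window and 286 in a gene body outside such windows, and 121 intergenic peaks on X were left out by the rule. When the same rule was applied to the 3913 strongest peaks of each replicate, it kept 393 in replicate 1 and 402 in replicate 2 (397.5 ± 6.36, SD, n = 2). Intervals on shares of peaks cover counting error only, and peaks are not replicates, so no test over peaks was made.

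The data come from chromatin immunoprecipitation and sequencing (ChIP-seq) of CEH-82, fused to the green fluorescent protein eGFP, in Caenorhabditis elegans at L1, the first larval stage. All material was strain OP212, with the genotype unc-119(ed3) III; ddEx58, where ddEx58 is named in the way extrachromosomal arrays are, although the labels also speak of an insertion that targets ceh-82, and unc-119 is a gene of nervous system development whose rescue serves as a transgene marker. The 1 group held 2 biological replicates of whole animals of mixed sex and unknown age, called against the same control alignment per the deposited read-me files. The sources used here do not give the promoter that drives the tagged gene or the cells that hold the protein. A site bound in few cells cannot be told apart from a site bound weakly in many, and with no read counts in the lists the depth is unknown.

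CEH-82 belongs to the homeobox family, whose proteins bind DNA through a homeodomain that in many members prefers sites with a TAAT core. Genes of this nematode stand close together, and most known regulatory elements lie just upstream of a gene, while enhancers can lie farther from the genes they act on. Many genes are also trans-spliced, so that an annotated 5' end can be a splice site with the start of transcription farther upstream.

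The sequences around the 5 strongest sites on chromosomes II to V are shown to set the short sequences counted at the summits in their surroundings, and they differ in how many they hold, from none upward. Each covers 100 bp on either side of the summit (201 bp) on the plus strand of ce11 (WBcel235), read from the RefSeq genome. Capitals mark GAGAGA, shown as its reverse complement where the match is on the other strand, and also the 9-base sequence CTGCGTCTC. The sites lay at chrIII:13062509-13062709 between F54F12.6 and Y39E4B.6, at chrIII:12583577-12583777 upstream of aakg-1, at chrII:2973978-2974178 upstream of nhr-88, at chrIII:3801413-3801613 upstream of mtm-3, and at chrII:9282903-9283103 between gldi-3 and mtrr-1.
F54F12.6 to Y39E4B.6: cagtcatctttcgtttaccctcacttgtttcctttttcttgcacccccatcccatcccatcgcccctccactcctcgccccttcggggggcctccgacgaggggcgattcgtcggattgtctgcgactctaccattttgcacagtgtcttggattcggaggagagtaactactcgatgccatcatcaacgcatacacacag
aakg-1: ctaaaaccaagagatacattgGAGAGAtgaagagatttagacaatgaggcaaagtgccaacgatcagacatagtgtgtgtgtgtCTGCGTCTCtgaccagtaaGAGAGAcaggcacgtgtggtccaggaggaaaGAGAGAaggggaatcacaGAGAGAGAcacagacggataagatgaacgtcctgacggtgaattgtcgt
nhr-88: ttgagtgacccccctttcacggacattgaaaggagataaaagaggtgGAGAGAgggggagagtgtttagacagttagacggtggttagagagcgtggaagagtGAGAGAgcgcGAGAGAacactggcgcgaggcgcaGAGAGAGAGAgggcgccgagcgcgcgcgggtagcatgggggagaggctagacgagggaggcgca
mtm-3: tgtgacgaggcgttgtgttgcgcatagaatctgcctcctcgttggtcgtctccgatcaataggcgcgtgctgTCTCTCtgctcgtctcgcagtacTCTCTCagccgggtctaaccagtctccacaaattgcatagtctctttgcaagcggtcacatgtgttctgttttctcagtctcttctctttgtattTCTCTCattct
gldi-3 to mtrr-1: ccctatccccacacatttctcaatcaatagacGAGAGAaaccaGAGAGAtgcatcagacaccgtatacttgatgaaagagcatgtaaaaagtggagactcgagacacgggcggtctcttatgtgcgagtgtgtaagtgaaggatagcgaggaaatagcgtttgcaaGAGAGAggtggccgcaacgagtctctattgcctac
The first of these holds neither sequence, and in the nhr-88 window GAGAGA starts at 6 places.

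TAATTA, a palindromic core that many homeodomain proteins prefer, was present in 4 of the 393 windows. Among the 4 was the nlp-40 site, the strongest of all 393 (signal 249), which is not printed. The other 3 are given with TAATTA in capitals, since they are exceptions. They lay at chrII:15173255-15173455 (signal 46.1), chrIII:6873749-6873949 (33.3) and chrV:6229036-6229236 (29.1), on the same strand and build.
gst-39: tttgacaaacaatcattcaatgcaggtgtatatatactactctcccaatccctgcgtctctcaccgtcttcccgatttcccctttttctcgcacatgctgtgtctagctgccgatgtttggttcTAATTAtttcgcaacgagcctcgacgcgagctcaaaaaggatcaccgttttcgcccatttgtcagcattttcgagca
K04C2.3: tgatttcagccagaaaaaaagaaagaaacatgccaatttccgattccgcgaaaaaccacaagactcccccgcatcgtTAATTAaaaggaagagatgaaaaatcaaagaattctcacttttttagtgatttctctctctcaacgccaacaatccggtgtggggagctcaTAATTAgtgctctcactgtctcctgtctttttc
W06H8.14: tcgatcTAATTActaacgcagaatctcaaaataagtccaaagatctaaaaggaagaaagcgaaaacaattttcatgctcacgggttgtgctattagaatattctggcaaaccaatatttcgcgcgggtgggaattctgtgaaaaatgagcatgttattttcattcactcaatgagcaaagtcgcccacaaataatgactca
The site on chromosome III held TAATTA at 2 places.

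The strongest intergenic sites lay in varied settings, between 3' ends, far upstream of a gene or deep in a long gap. Signal is the authors' value per peak and is read only within a list, so values of a replicate's list are on that list's own scale. The first, on chromosome I at 16940 to 17090, lay in a gap of 646 bp between the 3' ends of nlp-40, which encodes a neuropeptide-like protein, and rcor-1, a homologue of the CoREST corepressor. Its signal was 249 in the optimal list, 149 in replicate 1 and 100.4 in replicate 2. The next, on chromosome III at 13062479 to 13062738, had 202, 126 and 73.9 and lay 4123 bp past the 3' end of the non-coding gene F54F12.6 and 8147 bp upstream of Y39E4B.6. The site at aakg-1, which encodes a gamma subunit of AMP-activated protein kinase, lay 8276 bp upstream of it at 12583547 to 12583806 and had 189.6, 130.9 and 60.1. These 3 sites thus lay in very different settings, from a short gap between 3' ends to a stretch of 20592 bp between genes.

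Of the strongest sites of the other autosomes, the one on II (2973948 to 2974207) lay 2561 bp upstream of the nuclear hormone receptor gene nhr-88, with a signal of 174 in the optimal list, 112 in replicate 1 and 62.55 in replicate 2. On V (16355991 to 16356250) it lay 1400 bp upstream of pptr-1, a regulatory B subunit of the phosphatase PP2A, with 146, 88.3 and 61.8. On IV (2708628 to 2708887) it lay 1520 bp upstream of ubc-8, a ubiquitin-conjugating enzyme gene by its name, with 144, 97.8 and 50.9. All 3 were among the strongest peaks of both replicates.

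The 20 strongest sites were all overlapped by the 3913 strongest peaks of each replicate, as were 80.4% of all optimal peaks, and their signals ran from 249 down to 133. Upstream of a gene lay the sites at F58D5.5 (1064 bp, signal 169.8), mtm-3, a myotubularin lipid phosphatase gene (1046 bp, 164.5), ogt-1, the O-GlcNAc transferase gene (2055 bp, 151), and kin-19, a casein kinase I gene (1158 bp, 149.8). So did those at rimb-1, which encodes a RIM-binding protein of synapses (2344 bp, 147), hif-1, the hypoxia-inducible factor gene (1959 bp, 141), and Y39E4B.6 (2272 bp, 138). Between divergent genes, as did the hif-1 site, lay the sites of gldi-3 and mtrr-1, the gene of methionine synthase reductase (154), and of T04C4.3 and fnip-2 (136). Downstream of the nearest 5' end lay the sites at F40E3.3 (177), F54F12.6 (145), atfs-1, the transcription factor of the mitochondrial unfolded protein response (140.5), and linc-105 (133). The remaining site lay between F58D12.1 and F58D12.3 (142), with a pseudogene as the nearest 5' end. The mtm-3 site was the only one of the 393 that had its summit in a promoter window of the RefSeq annotation of the same assembly, and the other 392 were intergenic there too.

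Intergenic sites were somewhat weaker than promoter peaks. Their median signal was 51.2 (95% interval of the median 47.5 to 54.8, quartiles 34.8 and 75.3, range 27.6 to 249), against 59.0 (56.8 to 61.0) for promoter-window peaks and 44.6 (40.5 to 49.1) for gene-body peaks of the same list. The 121 intergenic peaks on X had a median of 51.9 (45.3 to 59.2). Of the autosomal intergenic sites 18 (4.58%, interval 2.74 to 7.14%) were among the strongest 10% of the optimal list, against 301 promoter peaks (11.9%, 10.6 to 13.2%). The share was 3.50% (1.69 to 6.34%) for gene-body peaks and 12.4% (7.11 to 19.6%) for X intergenic peaks. With autosomal peaks ranked by signal and cut into 4 groups of equal size, the intergenic share was 7.35% in the strongest group and 14.1%, 11.7% and 15.8% in the groups after it.

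**Figure D1:**
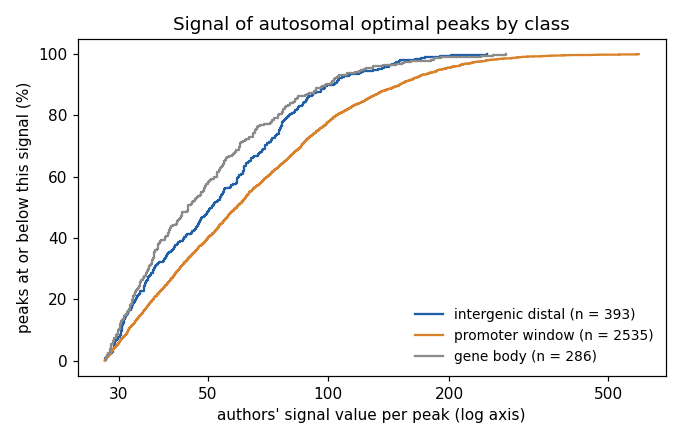
Cumulative share of autosomal optimal peaks (y axis, percent) at or below each signal value (x axis, log scale) for intergenic distal, promoter-window and gene-body peaks. The promoter curve lies to the right, with medians of 51.2, 59.0 and 44.6 in that order of classes.

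Both replicates held most of the sites among their strongest peaks. Of all 3913 optimal peaks, 80.4% were overlapped by the 3913 strongest peaks of both replicates, and of the intergenic sites 296 (75.3%, 70.7 to 79.5%), 354 by replicate 1 and 331 by replicate 2. The share was 82.4% (80.9 to 83.9%) for promoter peaks, 71.0% (65.3 to 76.2%) for gene-body peaks and 76.9% (68.3 to 84.0%) for X intergenic peaks. Since the optimal list was drawn up from both replicates, its making fixes these shares in part. Every site but 1 was overlapped in both full replicate lists. Their median signal was 30.9 in replicate 1 (range 8.58 to 149) and 20.5 in replicate 2 (4.65 to 100.4), and across the 392 sites with a value in both lists Spearman's rho was 0.692, a description across sites that share libraries and a control. A −log10 q-value at the ceiling of 3.82 was given to 307 sites (78.1%) and to 85.4% of promoter peaks.

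**Figure D2:**
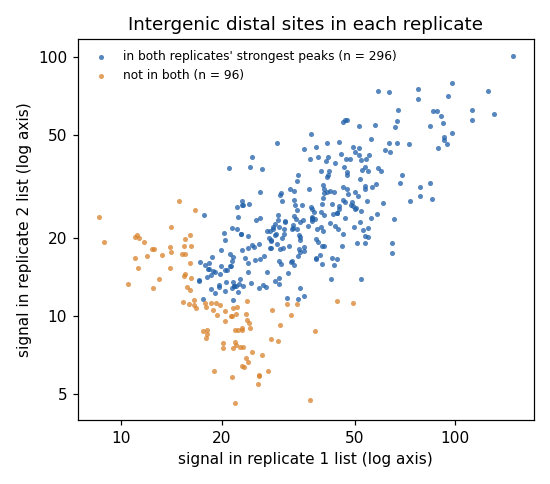
Signal of each intergenic distal site in the list of replicate 1 (x axis) and of replicate 2 (y axis), both log scales, for the 392 sites with a value in both. Blue points are the 296 sites overlapped by the strongest peaks of both replicates, and orange points, at the low end of 1 or both axes, are the other 96.

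Weaker intergenic peaks were far more numerous. Of 13408 autosomal peaks of the pooled list, 24.0% were in the optimal list, and of its 2242 intergenic peaks 393 (17.5%, 15.98 to 19.2%), against 34.2% of promoter-window and 7.62% of gene-body peaks. The 1849 intergenic peaks that did not enter the optimal list had a median signal of 12.4. By its label the pooled list includes background, so these weaker peaks need not be binding sites.

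Few sites lay between the 3' ends of convergent genes. All values below are set beside eligible sequence, which is every autosomal base outside promoter windows and gene bodies (12280249 bases, 14.9% of the autosomes), where the sites had a density of 32.0 per Mb. Of the sites 39 (9.92%, 7.15 to 13.3%) lay between convergent genes, where 23.8% of eligible bases lie, 240 (61.1%, 56.1 to 65.9%) between tandem genes (52.3% of bases) and 114 (29.01%, 24.6 to 33.8%) between divergent genes (23.9% of bases). Their densities were 13.4, 37.4 and 38.8 per Mb. The convergent share was 9.16% in replicate 1 and 11.2% in replicate 2 (10.2% ± 1.44, SD, n = 2), and the divergent share 29.01% and 29.1%. With protein-coding genes alone as flanks, only 12 sites were between convergent genes (3.05%, 1.59 to 5.27%) against 15.6% of bases. Among the weaker pooled intergenic peaks the shares were 17.04% convergent, 53.5% tandem and 29.4% divergent. In 12 cases a flanking end is shared by genes of both strands, so that the orientation depends on which was taken.

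The nlp-40 site, first in signal, was thus in the setting of lowest density. Of the 20 strongest, it and the site between linc-105 and tat-3 were the convergent ones.

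Most sites lay within a few kilobases of a 5' end and upstream of it. The median distance to the nearest annotated 5' end was 1592 bp (1507 to 1792, range 243 to 8276), against 1906 bp over eligible bases, and 1593 and 1680 bp in the replicates' own lists (1636 ± 61.5, SD, n = 2). To the nearest protein-coding 5' end it was 2126 bp against 2533 bp. Of the sites 70 (17.8%) were 1000 to 1250 bp and 73 (18.6%) 1250 to 1500 bp from a 5' end, distances that hold 13.9% and 11.5% of eligible bases. Within 2000 bp lay 242 sites (61.6% against 52.9% of bases) and within 5000 bp 378 (96.2% against 91.5%). The nearest 5' end pointed away from the site, so that the site was upstream of it, in 280 cases (71.2%, 66.5 to 75.7%), against 58.9% of bases. A flanking 3' end was within 500 bp of 60 sites (15.3%, 11.9 to 19.2%), against 21.9% of bases. The rule itself sets the least distance on the upstream side, so the values below that limit are of downstream positions.

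**Figure D3:**
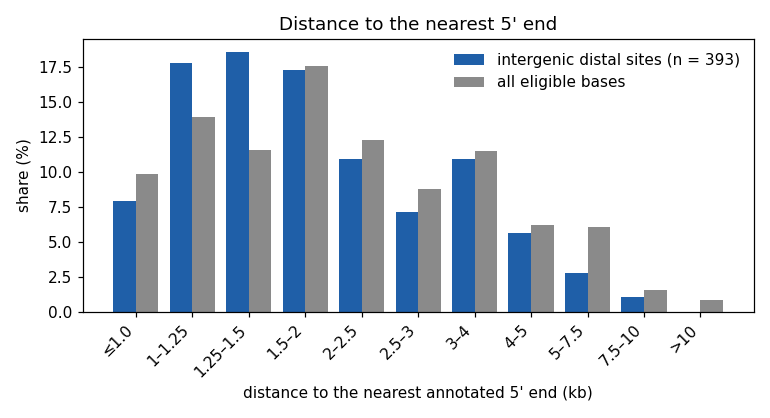
Share (y axis, percent) of the 393 sites and of all eligible bases by distance to the nearest annotated 5' end (x axis, bins in kb of unequal width). Sites exceed bases between 1 and 1.5 kb, and no site lay beyond 10 kb, where 0.864% of bases lie.

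The sites farthest from any protein-coding 5' end were on II and IV. The one at gcy-3, a receptor guanylyl cyclase gene, was 9780 bp away (signal 34.7), that at T23E1.1 was 9627 bp away (98.3), and that between the protein-coding genes snt-1, for synaptotagmin, and egl-27, a homologue of metastasis-associated proteins, was 9619 bp away (36.4). At the other end, the members closest to the limit lay 1005 bp upstream of B0001.10 (signal 31.1), 1012 bp upstream of mstr-1 (71.9) and 1012 bp upstream of pck-1 (81.6). The peaks just inside the promoter window, which the rule left out, lay 985 bp upstream of C25G4.16 (52.0), 984 bp upstream of hint-3 (62.3) and 976 bp upstream of bud-31 (65.4).

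Density differed more between chromosomes than between arms and centres. There were 107 sites on chromosome I (27.2%, 22.9 to 31.9%, where 17.6% of eligible bases lie), 66 on II (16.8% against 20.9%), 96 on III (24.4%, 20.3 to 28.99%, against 17.7%), 69 on IV (17.6% against 18.2%) and 55 on V (13.99%, 10.7 to 17.8%, against 25.6%). The densities were 49.4, 25.7, 44.2, 30.9 and 17.5 sites per Mb in that order. The share on I was 26.97% in replicate 1 and 28.4% in replicate 2, and that on V 13.99% and 12.9%. All autosomal optimal peaks also lay more often on I and III than on V, with 23.2%, 17.8%, 22.4%, 19.3% and 17.3% from I to V. Of the optimal peaks of each chromosome, the sites made up 14.4% on I (11.9 to 17.1%), 11.5% on II, 13.3% on III, 11.1% on IV and 9.87% on V (7.53 to 12.7%).

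With the centre taken as the middle 50% of each chromosome's length, 184 sites (46.8%, 41.8 to 51.9%) were in the arms, where 49.4% of eligible bases lie. The interval includes that share. The replicates' own lists gave 47.8% and 45.02% (46.4% ± 1.99, SD, n = 2). The arms held 30.3 and the centres 33.6 sites per Mb, and by chromosome the arm and centre densities were 46.1 and 52.9 on I, 24.97 and 26.4 on II, 37.8 and 50.7 on III, 29.8 and 31.8 on IV, and 18.4 and 16.6 on V. Within chromosomes, 1 stretch of IV, from 80 to 90% of its length, held no site, but also only 61413 eligible bases, and the same stretch of III had 3 sites (15.7 per Mb).

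**Figure D4:**
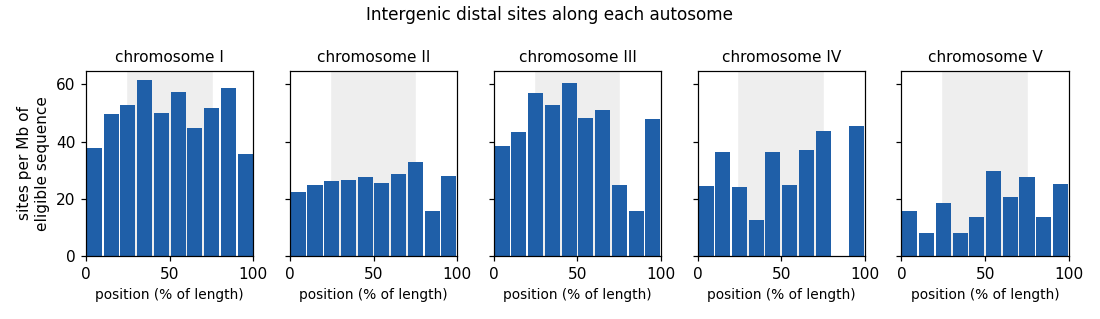
Intergenic distal sites per Mb of eligible sequence (y axis) in bins of 10% of each autosome's length (x axis, percent from the left end), with the middle 50% shaded grey. Chromosomes I and III stand higher than II, IV and V over most bins, and the empty bin of IV held 61413 eligible bases.

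Some gaps between genes held several sites. How many would do so by gap length alone was not computed, so the counts are a description. The 393 sites lay in 343 intervals between genes, of which 41 held 2 or more and 8 held 3 or more, so that 91 sites shared an interval. The interval on III between F54F12.6 and Y39E4B.6 (12269 bp) held 4, with signals from 32.3 to 202. Those with 3 were ccb-1 to col-50 on I (30.6 to 95.7), W04D12.2 to ddx-23 on III (35.1 to 84.1), a non-coding gene to zip-7 on IV (30.95 to 77.0), gei-8 to rpl-21 on III (30.3 to 68.3), sesn-1 to txt-7 on I (35.3 to 59.4), Y20F4.11 to crtc-1 on I (27.8 to 57.8), and F53H2.3 to fce-2 on V (28.9 to 31.7). Among their genes ccb-1 encodes a beta subunit of calcium channels, zip-7 a bZIP protein, gei-8 a homologue of nuclear receptor corepressors, rpl-21 a protein of the large ribosomal subunit, and crtc-1 a coactivator of CREB. Another optimal summit lay within 2000 bp of 123 sites (31.3%, 26.7 to 36.1%), against 20.9% (19.3 to 22.5%) of promoter peaks. Within 1000 bp the shares were alike, 9.16% (6.50 to 12.5%) and 9.55% (8.43 to 10.8%). Within 5000 bp they were 53.9% and 42.4%. The median distance to the nearest other optimal summit was 4172 bp for the sites and 6505 bp for promoter peaks. It was 3023 bp for gene-body peaks and 4456 bp for X intergenic peaks, so such closeness was not particular to the sites. The nearest other peak was in a promoter window for 256 sites (65.1%), intergenic for 108 and in a gene body for 29.

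Among 14 gene lists, made from gene names and applied to the nearest protein-coding or miRNA 5' end on each side of a site, genes of large families were mostly as frequent as in eligible sequence or less so. Chemoreceptor genes flanked 8 sites (2.04%, 0.883 to 3.97%) against 7.84% of bases, and neuropeptide and insulin genes 1 (0.254%, 0.00644 to 1.41%) against 2.82%, the nlp-40 site. F-box and BTB/MATH genes flanked 3 (0.763%, 0.158 to 2.21%) against 3.47%, and homeobox genes 2 (0.509%, 0.0617 to 1.83%) against 2.24%. In these 4 lists the interval lies below the share of bases. The weaker pooled intergenic peaks had 4.38%, 2.33%, 1.73% and 1.78%.

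Both homeobox genes were on V, namely ceh-24, 4538 bp from its site (signal 80.9, and 47.4 and 36.01 in the replicates), and unc-62, the Meis homologue, 2173 bp from its site (33.8, and 23.9 and 11.4). The unc-62 site was not among the strongest peaks of both replicates. The same holds for the sites named below at tbx-34, ser-4, lit-1, daf-8 and ptr-8. The chemoreceptor genes with the highest signal were srw-60 (174, the nhr-88 site), sre-3 (88.2, the site of bath-44 too) and sri-5, which flanked 4 of the 8 sites, all on I (86.8 down to 38.6). The 5' end of srw-60 lay 15470 bp from its site and that of sre-3 6537 bp. That of sri-5 lay 5447 and 20664 bp from the 2 strongest of its sites. The F-box and BTB/MATH genes were bath-44, fbxa-51 (76.3, 19913 bp from its 5' end) and sdz-38 (37.1).

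Nuclear hormone receptor genes flanked 16 sites (4.07%, 2.34 to 6.53%, against 3.63% of bases), led by nhr-88, nhr-20 (signal 95.99), nhr-274 (72.3) and nhr-10 (70.9). Genes of bHLH, T-box, GATA, Sox and forkhead factors flanked 6 sites (1.53% against 1.62%). Of these, hif-1 flanked 2 (141 and 73.4, at 1959 and 3446 bp upstream). Farther from their sites, hlh-10 flanked 1 (106, 8412 bp from its 5' end) and tbx-34 flanked 1 (59.7, 15119 bp). Ion channel and transmitter receptor genes flanked 5 (1.27% against 2.82%), among them lgc-29 (119), the BK potassium channel gene slo-1 (76.8), twk-2 (65.9) and the serotonin receptor gene ser-4 (30.9, 12831 bp from its 5' end). The interval of each of these lists includes the share of bases.

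Cuticle collagen genes flanked 6 sites (1.53% against 1.11%), of which 3 were at col-50 (95.7 down to 30.6), 1 at dpy-10 (42.2), 1 at col-108 (33.6) and 1 at sqt-1 (30.9). C-type lectin genes flanked 6 (1.53% against 1.43%), led by clec-91 (88.8), clec-10 (56.3), clec-182 (55.3) and clec-93 (42.2). Cytosolic ribosomal protein genes flanked 5 (1.27%, 0.414 to 2.94%, against 0.497%). Of these, rps-28 flanked 2 (72.3 and 35.5, 9704 and 4133 bp from its 5' end) and rpl-21 flanked 3 (68.3 down to 30.3). The Wnt, Notch and TGF-beta list had 3 (0.763% against 0.946%), at the TGF-beta receptor gene daf-4 (46.8), the Nemo-like kinase gene lit-1 (32.4, 7673 bp from its 5' end) and the Smad gene daf-8 (29.6). Hedgehog-related and patched-related genes had 4 (1.02% against 1.16%), at ptc-1 (76.5, 8128 bp from its 5' end), grd-6 (75.7), ptr-23 (43.6) and ptr-8 (29.2). Heterochronic genes had 1 (0.254% against 0.216%), 1502 bp upstream of lin-41, which encodes a regulator of larval timing (113, and 66.9 and 46.4 in the replicates), and histone genes none of 393 (exact upper limit 0.934%, against 0.264% of bases).

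The nearest 5' end belonged to a protein-coding gene for 280 sites (71.2%, 66.5 to 75.7%, against 65.2% of bases), to a gene annotated as ncRNA for 66 (16.8% against 18.3%), to a piRNA for 21 (5.34% against 5.31%), to a snoRNA for 10 (2.54%, 1.23 to 4.63%, against 1.22%) and to a pseudogene for 7 (1.78%, 0.719 to 3.64%, against 7.23%). No site had a tRNA, snRNA or rRNA gene as the nearest 5' end (exact upper limit 0.934% for each), which are nearest to 0.582%, 0.0702% and 0.0436% of bases. A miRNA was nearest for 4 sites (1.02%, 0.278 to 2.59%, against 0.617% of bases), which are named here after their values were seen, at cel-mir-2211 (1483 bp, signal 69.1), cel-mir-2215 (1798 and 1455 bp, 54.8 and 34.7) and cel-mir-72 (1601 bp, 40.8), all upstream.

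GA repeats and CTGCGTCTC were more common at the summits than in the flanks, and TAATTA was rarer there. The windows printed above were picked by signal or for holding TAATTA, so they are not a measure of how common these sequences were. Matches on either strand were counted up to 100 bp from the summit, in flanks 300 to 400 bp away and in every window of the same length centred on an eligible base. GAGAGA was at 287 summits (73.0%, 68.4 to 77.4%), in the flanks of 12.2% and in 10.8% of all such windows. The share was 71.2% in replicate 1 and 69.4% in replicate 2 (70.3% ± 1.30, SD, n = 2). It was 41.3% (39.4 to 43.2%) at promoter peaks, 62.9% (57.1 to 68.5%) at gene-body peaks, 47.1% (37.97 to 56.4%) at X intergenic peaks and 31.5% (29.4 to 33.7%) at weaker pooled intergenic peaks. At least 3 starts of GAGAGA were present at 127 sites (32.3%) and at 10.6% of promoter peaks. Base composition differed between these sets: the median GC content of the summit window was 45.8% for the sites, 42.8% for promoter peaks and 46.8% for X intergenic peaks. Its part in these shares was not tested.

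CTGCGTCTC, which was added after counts of 6-base sequences at the summits had been seen, so that its excess describes how it was chosen, was at 97 summits (24.7%, 20.5 to 29.3%), in the flanks of 1.78% and in 1.19% of windows. It was at 23.4% and 24.1% in the replicates' lists, 14.04% of promoter peaks, 21.0% of gene-body peaks and 10.7% of X intergenic peaks. Of the 97 sites 81 also had GAGAGA, and 90 sites (22.9%) had neither. With the sites cut into 4 groups by signal, GAGAGA was at 81.8% of the strongest, then at 75.5%, 65.3% and 69.4%, and CTGCGTCTC at 39.4%, 24.5%, 19.4% and 15.3%. The median signal was 64.1 with CTGCGTCTC and 47.6 without it, and 54.2 with GAGAGA and 47.4 without it.

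TAATTA was at 4 summits (1.02%, 0.278 to 2.59%), in the flanks of 12.98% and in 9.54% of windows. It was at 1.27% and 2.24% in the replicates' lists and at 4.81% (4.01 to 5.72%) of promoter peaks. It was also at 2.45% (0.990 to 4.98%) of gene-body peaks, an interval that overlaps that of the sites. X intergenic peaks had 4.96% (1.84 to 10.5%), an interval that overlaps that of the sites as well, and weaker pooled intergenic peaks 8.38%. In the flanks of promoter peaks and of gene-body peaks TAATTA was at 11.2%, so it was rarer at their summits too. The 4-base core TAAT, part of that longer palindrome, was at 48.6% of summits against 86.5% of flanks and 85.2% of windows, and the 6-base sequence TGATAA at 3.56% against 17.8% and 16.5%. ATATAT was at 5.09% against 9.67% and 10.8%. At promoter peaks TAAT was at 64.4%, TGATAA at 7.65% and ATATAT at 5.05%. At gene-body peaks the 3 were at 52.1%, 6.99% and 6.29%. The E-box sequence CAGCTG was at 7.89% (5.42 to 11.01%) against 2.54% and 2.82%, GCGCAG at 7.89% against 2.54% and 2.02%, and CACGTG, another E-box, at 6.36% (4.16 to 9.25%) against 4.33% and 2.94%. In that order, promoter peaks had 5.80%, 9.78% and 4.62%, and gene-body peaks 3.85%, 12.2% and 8.04%. TGACTCA, the AP-1 type site, was at 2.54% against 1.02% and 1.98%, and TTGCGCAA at 1 summit and in the flanks of 3. CG occurred at every summit and in 97.7% of windows, so its presence separates nothing, with a median of 9 at summits and 6 in flanks. For promoter peaks these medians were 11 and 7. The GC content of flanks and of eligible windows is not given here. The part of base composition in the differences between summits, flanks and windows was not tested. A match is a sequence description and not a bound site.

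**Figure D5:**
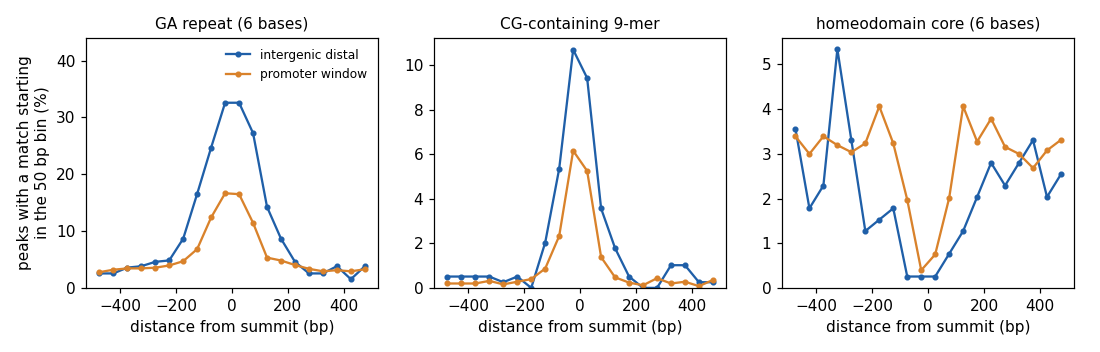
Share of sites and of promoter-window peaks (y axis, percent) with a match starting in each 50 bp bin by distance from the summit (x axis, bp), for GAGAGA (left), CTGCGTCTC (middle) and TAATTA (right), on both strands. GAGAGA starts in the bins next to the summit in 32.6% of the sites against 16.6% and 16.5% of promoter peaks. CTGCGTCTC rises there to 10.7%, and at promoter peaks to 6.15%. TAATTA falls to 0.254%, and at promoter peaks to 0.394%.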

How the data were processed

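ChIP-seq peak lists of 1 group of 2 biological replicates were analysed on ce11 (WBcel235). The authors deposited 1 list per replicate, 1 called on pooled replicates and 1 optimal list, derived from the others per the read-me files. Aligner, caller and threshold were not stated in anything used here. The deposited lists are narrowPeak files with the authors' signal value per peak, whose scale differs between lists, a q-value as −log10 and a summit offset. Signal ranked peaks, then q-value.

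Summits were placed against the Ensembl annotation (release 115), and against RefSeq genes as an alternative, with python 3.11.15, numpy 2.4.6, scipy 1.17.1 and pandas 2.3.3. Peaks overlapped when they shared 1 bp. Eligible sequence was counted base by base. Shares have exact (Clopper-Pearson) 95% intervals, and medians have order-statistic intervals. With 1 group no test between conditions was possible, and none over peaks was made. The position rule, distances and sequence counts were checked on positions of known class.

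Sites were named by a rule: the 20 strongest held by both replicates, the strongest of each autosome, the 3 farthest from a protein-coding 5' end, up to 4 per gene list, every interval with 3 or more sites, and the 3 nearest either side of the window limit. The site set, gene lists and sequences were chosen with earlier results of these data known. The restriction of gene lists to protein-coding and miRNA 5' ends was chosen later still. Alternatives were other windows, annotations, list lengths, overlaps, centres, peak midpoints and each replicate alone.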

Additional observations from a re-analysis of the deposited data

How the results depend on the processing

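Only 8 of the 393 sites were narrower than 260 bp, and peaks of 260 bp had their summit at the midpoint. Peak midpoints could thus change little, and the values computed with them stayed the same. RefSeq genes gave 416 sites, with 48.32% in arms and a median distance of 1605 bp. Both of the latter were within 1 SD between replicates of the reported values. The median signal, which has no such SD, was 51.36 with RefSeq genes. Orientation and sequence shares were not recomputed with RefSeq genes. The number of sites, 393, was 197 with windows of 2000 bp, 633 with protein-coding genes alone and 172 in the stronger 50% of the list, whose median signal was 77.23. The share in arms, 46.82%, was 43.85% with 500 bp, 44.67% with 2000 bp and 42.97% with protein-coding genes. The arms' share of eligible bases under those settings is not given here, so these values cannot be read as scarcity in arms. With a narrower centre the share in arms was 65.9% (33.4% of bases inside that centre, 66.6% outside). With recombination domains it was 48.85% (51.7% of bases). The domain boundaries were not read from a file. The median distance was 1256 bp with 500 bp, 2629 bp with 2000 bp and 2228 bp with protein-coding genes, as the window's construction sets. With coding flanks the divergent share was 37.15% and the convergent share 3.053%. GAGAGA was at 80.23% of summits in the stronger 50% and at 53.18% within 50 bp. Both replicates held 33.33% of sites with lists of 50% of the length and 99.75% with full lists. With 1 replicate left out, the distance ranged from 1593 to 1680 bp, the divergent share from 29.01 to 29.1%, GAGAGA from 69.4 to 71.25% and TAATTA from 1.272 to 2.239%. The SD behind such comparisons comes from 2 lists. No paired analysis was possible because the replicates form 1 group. Depth is unknown, and 1 control served both replicates.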

Other observations

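Soft-masked bases are those that the RefSeq genome shows in lower case as repeats or low-complexity sequence. They made up a median of 19.4% of the summit window of the intergenic sites (interval 17.4 to 21.4%). The median was similar at gene-body peaks, 20.4% (16.4 to 23.4%). It was 26.4% (24.4 to 27.9%) at promoter peaks and 12.9% (10.4 to 17.4%) at X intergenic peaks. GCGCAG was at 7.89% of the sites (5.42 to 11.01%) and at 21.5% of X intergenic peaks (14.5 to 29.9%), while GAGAGA was at 73.0% and 47.1%.

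Genes annotated as lincRNA had the nearest 5' end for 4 sites (1.02%, 0.278 to 2.59%, against 1.34% of eligible bases), named here after their values were seen, at linc-105 (signal 133), linc-93 (76.5), linc-151 (61.1) and linc-44 (60.6), all downstream of that end. An antisense RNA, C02F4.12, was nearest for 1 site (signal 30.3, 0.254% of sites against 0.116% of bases).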
